A study of Mus musculus with 6 samples.

Results

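Collagen transcripts were measured by RNA-seq in mouse primary uterine stromal cells (mUSCs), the fibroblast-like cells that lie beneath the uterine epithelium and later form the decidua. The genes were those whose mouse symbol is Col, a number, the letter a and a number, which gave 44 collagen genes of 54232 genes in the count table. They were grouped by the kind of assembly that their chains form into 11 fibrillar, 6 basement membrane, 6 beaded-filament, 9 FACIT, 4 transmembrane and 8 network, multiplexin and other genes. FACIT stands for fibril-associated collagens with interrupted triple helices. The grouping used no measured value.

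The mUSCs came from mice aged 8 to 12 weeks on D4 (day 4), given as pregnancy in the time label and as pseudopregnancy in the extraction protocol and the study. The labels name 3 libraries WT and 3 libraries Pbrm1 cKO, the latter from mice whose Pbrm1 fl/fl alleles are deleted by PR-IRES-cre. The study names its control cells Pbrm1 fl/fl, so the sources differ on whether the libraries labelled WT carried floxed alleles. Pbrm1 encodes a subunit of a SWI/SNF chromatin remodeling complex. Cre from the progesterone receptor locus acts in any cell that has expressed the receptor, uterine epithelium included. Each preparation pooled 5 to 10 uterine horns (the labels describe this for WT), and cells were plated for 4 h and then 2 h before RNA was taken. The study calls its replicates biological, but neither it nor the labels states how pools were divided among libraries, and p-values measure the spread between these libraries.

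Collagens are the main structural proteins of the extracellular matrix. Chains wind around each other in a triple helix, which needs a glycine in each triplet of residues, and the helices assemble into fibrils, sheets or filaments outside the cell. Fibrillar collagens give the stroma its tensile strength, basement membrane collagens form the sheet under epithelium and around vessels and decidual cells, and type VI collagen forms beaded microfilaments close to the cell surface. In the pregnant mouse uterus, the stroma around the implanting embryo is known for remodeling its fibrils and laying down basement membrane material as it decidualizes.

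In the coding sequences, the length of the glycine repeat separates the fibrillar genes from the other classes. In the longest coding transcript of each gene (GENCODE mouse release 21), the longest uninterrupted run of glycine codons leading each codon triplet spanned 216 to 344 triplets in the 11 fibrillar genes. It spanned 39 to 66 triplets in the basement membrane genes, 37 to 87 in the beaded-filament genes, 32 to 113 in the FACIT genes, 40 to 55 in the transmembrane genes and 23 to 75 in the rest. The following lines show the first 8 triplets (72 bases, 5′ to 3′, coding strand) of the longest run in 4 genes on which the results turn. Capitals mark the glycine codon that leads each triplet, and a glycine codon elsewhere in a triplet stays in lower case. Col1a1 is shown from codon 168, Col3a1 from codon 164, Col6a3 from codon 2165 and Col17a1 from codon 651.
Col1a1: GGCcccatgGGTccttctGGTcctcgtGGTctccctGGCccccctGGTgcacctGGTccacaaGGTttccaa
Col3a1: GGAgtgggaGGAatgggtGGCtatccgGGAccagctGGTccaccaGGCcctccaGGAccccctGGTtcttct
Col6a3: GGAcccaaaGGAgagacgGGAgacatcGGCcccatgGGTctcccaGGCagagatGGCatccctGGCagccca
Col17a1: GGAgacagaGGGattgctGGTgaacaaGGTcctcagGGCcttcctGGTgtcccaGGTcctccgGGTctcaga
The Col1a1 run went on for 338 triplets and, with 1 shorter run, took up 73.2% of its 1454 codons. In Col6a3, which has 3284 codons, the longest run was 45 triplets and runs of at least 5 triplets held 10.0% of the codons.

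The libraries held 13253575 to 18338667 counts each. A gene without a count could still have had up to 3 counts, that is 0.164 to 0.226 CPM, a limit that covers counting error only. Pbrm1, the targeted gene, was at 29.6% of its WT level in Pbrm1 cKO (adjusted p = 5.19e-40, DESeq2). Its counts cover the whole gene and not the floxed part alone. The stromal markers Vim (33864 normalized counts in WT and 28137 in Pbrm1 cKO) and Pdgfra (14507 and 16964) were abundant. Of 14 stromal markers 5 were called (35.7%, beside 31.1% of all genes tested): 4 were lower in Pbrm1 cKO and 1, Pdgfra, was higher. Those lower were Thy1 (log2 fold change -1.21), Hoxa11 (-0.67), Hoxa10 (-0.56) and Vim (-0.27), the first 3 named after their values were seen. Summed as DESeq2 normalized counts per kb of exon, the stromal markers were at 12675 to 14364 in WT and 11381 to 12136 in Pbrm1 cKO, lower in every Pbrm1 cKO library. On TPM (counts scaled by exon length and library) the sum was 2390 to 2780 in WT and 2390 to 2700 in Pbrm1 cKO, which overlap. The fall of the sum thus depended on the scaling, and the TPM scale itself shifted between the groups, as given with the collagen sums. The part of the stromal marker differences in those of the fibrillar collagens was not tested. Epithelial Epcam was low (219 and 233 normalized counts), and WT replicate 1 (67.3) lay below the other WT libraries (297 and 292). Other epithelial markers were more abundant, such as Krt18 (998 and 826, not called) and Krt8 (476 and 682, called higher). Of 15 epithelial markers tested, 6 were higher in Pbrm1 cKO and none was lower, as given with Col7a1 and Col17a1. Smooth muscle and pericyte markers were abundant as a list (22869 to 24141 per kb over all libraries), although Myh11 was low (82.2 and 66.7 normalized counts). Of 14 leukocyte markers tested (16 listed), 13 were higher in Pbrm1 cKO, and the list summed to 2788 to 6239 per kb in WT and 24947 to 26587 in Pbrm1 cKO. Of the defining genes, Ptprc ranged from 172 to 370 normalized counts in WT and from 1070 to 1138 in Pbrm1 cKO, whereas the B cell marker Cd79a and the natural killer cell marker Nkg7 were at 0 in WT replicates 1 and 3. The endothelial markers summed to 373 per kb in WT replicate 1, 995 and 881 in the other WT libraries and 326 to 365 in Pbrm1 cKO. In bulk RNA, fewer cells of a type and less RNA per cell cannot be told apart.

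Of the 44 collagen genes, 43 had a count. Col2a1, Col9a1 and Col9a2 had at most 3 counts in every library, and Col10a1, Col25a1 and Col28a1, with at most 6 counts in any library, were not tested. The other 38 were tested with DESeq2, and 20 of them (52.6%) passed an adjusted p of 0.05, beside 31.1% of the 17471 genes tested in all. In Pbrm1 cKO 8 collagen genes rose (15.9% of all genes rose) and 12 fell (15.2% of all genes fell). WT and Pbrm1 cKO libraries did not overlap for 25 of the 38, beside 48.6% of all genes tested. The median log2 fold change of the 38 genes was -0.06, and that of all genes tested was -0.000595, so the collagen genes did not move together in one direction.

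The calls were also counted by class. Of 10 fibrillar genes tested, 5 fell and 2 rose (median log2 fold change -0.71). Of 6 basement membrane genes, 3 fell and none rose (median -0.28). Of 6 beaded-filament genes, 2 rose and none fell (median 0.56). Among the FACIT genes 2 of 7 rose and 2 fell (median 0.47), among the network, multiplexin and other genes 1 of 6 rose and 2 fell (median -0.34), and among the transmembrane genes 1 of 3 rose (median -0.52). The share called was 33.3% in the beaded-filament and in the transmembrane class, near the 31.1% of all genes tested, and higher in the other classes. Of the beaded-filament calls, that of Col6a4 was lost under 8 of 14 alternative settings. Whether the classes differ from each other was not tested.

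**Figure D1:**
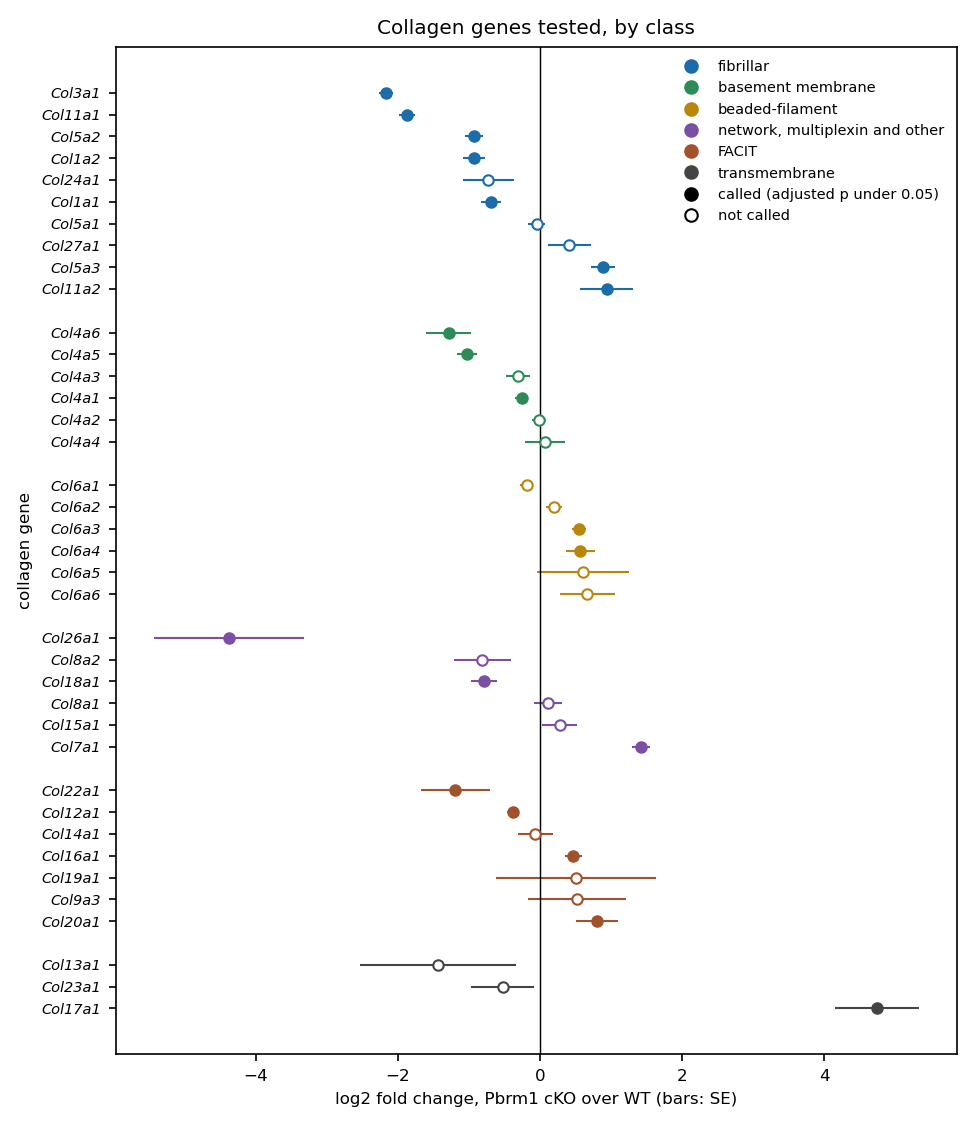
Each point is the log2 fold change (Pbrm1 cKO over WT, DESeq2, 3 libraries per group) of 1 of the 38 collagen genes tested, with its SE as a bar, and filled points passed an adjusted p of 0.05. Col3a1 (-2.17) and Col11a1 (-1.87) lie farthest to the left among the fibrillar genes, and Col17a1 (4.74) and Col26a1 (-4.38), each near the counting limit in 1 group, have the widest bars among the genes called.

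The genes of the abundant interstitial types I and III fell. Col3a1 encodes the single chain of type III collagen, which makes the fine, compliant fibrils of soft tissues such as the uterus. It lies at chr1:45311538-45349706 (GRCm38, plus strand) and had 13321, 15706 and 12794 normalized counts in WT, against 3206, 2999.5 and 3099 in Pbrm1 cKO. All WT libraries lay far above all Pbrm1 cKO libraries. Col3a1 was at 22.2% of its WT level (log2 fold change -2.17, SE 0.10, adjusted p = 1.41e-93, DESeq2).

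Col1a1 (chr11:94936224-94953042, plus strand) and Col1a2 (chr6:4504814-4541544, plus strand) encode both chains of type I collagen, the main load-bearing fibril. Col1a1 had 27878, 18768 and 24349.5 normalized counts in WT, against 15273, 14337 and 14332 in Pbrm1 cKO (log2 fold change -0.69, SE 0.14, adjusted p = 5.65e-06, DESeq2). Col1a2 had 9718, 6798 and 6459.8 in WT and 4209, 4003 and 3866 in Pbrm1 cKO (-0.93, SE 0.15, adjusted p = 1.29e-08). In both genes WT replicate 1 was highest, the WT libraries spread widely, and every Pbrm1 cKO library lay below the lowest WT library.

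Type V and type XI collagens are minor fibrillar collagens that sit inside type I and type II fibrils and are known to control how fibrils start and how thick they grow. Their chains did not move together. Col5a2 (chr1:45374321-45503282, minus strand) had 19905, 16802 and 13942 normalized counts in WT, against 9177, 8849 and 8582 in Pbrm1 cKO (log2 fold change -0.93, SE 0.13, adjusted p = 1.95e-11, DESeq2). Col11a1 (chr3:114030540-114220718, plus strand) had 2658, 2382 and 2302 in WT and 669, 714 and 620.2 in Pbrm1 cKO (-1.87, SE 0.11, adjusted p = 3.77e-64). Both fell with a clear gap between the groups, and Col11a1 came to 27.3% of its WT level.

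Other chains of the same types rose or were not called. Col5a3 (chr9:20770050-20815067, minus strand) rose from 2530.0, 4109.7 and 4051 normalized counts in WT to 6906, 6438 and 6481 in Pbrm1 cKO (log2 fold change 0.89, SE 0.17, adjusted p = 1.03e-06, DESeq2). Col5a1, the chain common to the type V molecules, was at 12864, 10705 and 9419 in WT and 11115, 10553 and 10286 in Pbrm1 cKO (-0.05, SE 0.12, adjusted p = 0.832), and the groups overlapped. Col11a2 was low, with 26.1 ± 9.66 normalized counts in WT, against 50.1 ± 5.58 (mean ± SD of 3 libraries; 0.94, SE 0.37, adjusted p = 0.04). That call did not hold without WT replicate 3 (adjusted p = 0.185) or without any of the Pbrm1 cKO libraries (0.112 to 0.176). Of the remaining fibrillar genes, Col24a1 (48.4 ± 14.7 and 29.3 ± 3.64) and Col27a1 (38.8 ± 5.66 and 51.7 ± 3.16) were not called (adjusted p = 0.113 and 0.332), although their groups did not overlap. Col2a1, the collagen of cartilage, had no count in WT and at most 3 counts per library in Pbrm1 cKO.

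**Figure D2:**
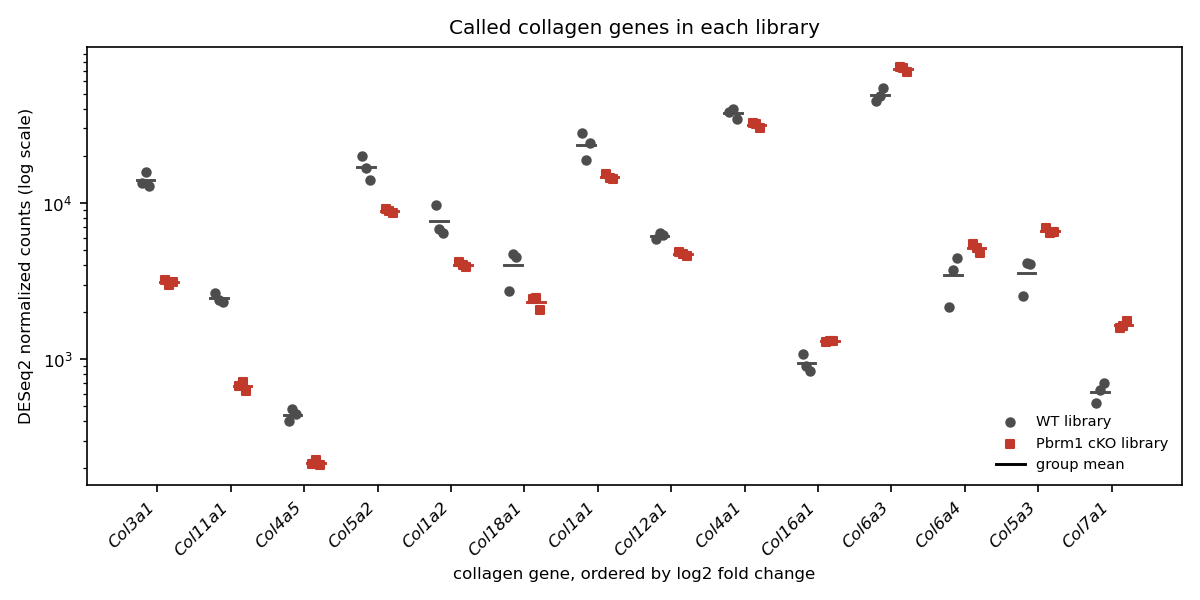
DESeq2 normalized counts (log axis) of the 14 called collagen genes with a mean of at least 100, in each WT library (gray circles) and each Pbrm1 cKO library (red squares), with the group mean as a line. Genes run from the lowest log2 fold change (Col3a1, -2.17) to the highest (Col7a1, 1.42), and the libraries of the groups do not overlap in any of them.

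The start-site windows of 4 called fibrillar genes are printed here because these genes moved in both directions. They are the fibrillar genes with the highest mean counts among those called that have a window in the RefSeq table (GRCm38.p6), from 250 bases before to 50 bases after the annotated gene start. Of the 44 collagen genes, 35 have a window there. Capitals mark 3 motifs searched on both strands: the CAAT box (CCAAT), the TATA box (TATAAA) and the GC box (GGGCGG). The windows are Col3a1, chr1:45311288-45311587 (plus strand), Col1a2, chr6:4505368-4505667 (plus strand), Col5a3, chr9:20815018-20815317 (minus strand), and Col11a1, chr3:114030290-114030589 (plus strand), each written 5′ to 3′ on the strand of its gene.
Col3a1: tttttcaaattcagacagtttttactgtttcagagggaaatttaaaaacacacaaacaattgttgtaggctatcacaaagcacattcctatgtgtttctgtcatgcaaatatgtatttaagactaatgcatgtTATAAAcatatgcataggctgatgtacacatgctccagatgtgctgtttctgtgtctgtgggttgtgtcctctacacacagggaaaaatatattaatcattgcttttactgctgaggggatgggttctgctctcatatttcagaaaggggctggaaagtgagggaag
Col1a2: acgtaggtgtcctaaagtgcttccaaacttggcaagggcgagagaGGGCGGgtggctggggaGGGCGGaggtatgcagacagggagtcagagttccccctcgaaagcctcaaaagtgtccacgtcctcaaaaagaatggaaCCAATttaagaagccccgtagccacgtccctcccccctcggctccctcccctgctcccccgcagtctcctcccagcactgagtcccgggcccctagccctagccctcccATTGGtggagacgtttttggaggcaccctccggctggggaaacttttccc
Col5a3: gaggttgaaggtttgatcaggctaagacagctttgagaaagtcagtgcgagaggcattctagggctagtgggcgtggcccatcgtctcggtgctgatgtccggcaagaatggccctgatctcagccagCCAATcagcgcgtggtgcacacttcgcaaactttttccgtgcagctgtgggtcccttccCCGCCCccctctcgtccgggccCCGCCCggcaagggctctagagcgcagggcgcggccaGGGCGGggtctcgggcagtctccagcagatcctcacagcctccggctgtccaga
Col11a1: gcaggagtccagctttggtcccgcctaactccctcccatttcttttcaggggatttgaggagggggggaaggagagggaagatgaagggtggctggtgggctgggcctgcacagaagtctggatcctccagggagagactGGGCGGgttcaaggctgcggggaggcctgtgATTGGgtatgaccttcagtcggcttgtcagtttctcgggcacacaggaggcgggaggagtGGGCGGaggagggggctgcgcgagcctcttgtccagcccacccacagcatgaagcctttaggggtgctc
Positions are those of the leftmost base, with 1 the first base of the RefSeq gene, and a motif on the other strand shows as its reverse complement. The Col3a1 window held a TATA box at -117 from the gene start and neither of the other motifs. The Col1a2 window held a GC box at -205 and -188 and a CAAT box at -109 and, on the other strand, at 1. The Col5a3 window held a CAAT box at -122 and a GC box at -63, -41 and -4, and the Col11a1 window held a GC box at -110 and -19 and a CAAT box at -79. Col5a3, which rose, thus held the same pair of motifs as Col1a2 and Col11a1, which fell. The 35 genes with a window have 38 windows, since some have more than 1 start. Of these windows 34.2% held the CAAT box, 13.2% the TATA box and 60.5% the GC box, beside 37.4%, 13.6% and 35.7% of 32851 windows in the table. A match describes the letters and is no evidence of binding.

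Among the basement membrane collagens, the main chains differed little between the groups and a minor pair fell. Col4a1 and Col4a2 (chromosome 8) encode the chains of the common type IV network and start back to back, their annotated ends overlapping by 22 bases. Col4a1, with 38012, 40120.1 and 34486 normalized counts in WT, against 32545, 31863 and 30059.8 in Pbrm1 cKO, fell slightly (log2 fold change -0.25, SE 0.09, adjusted p = 0.0198, DESeq2). The groups lay close to each other, and the call was lost without WT replicate 2 (adjusted p = 0.103) or without any Pbrm1 cKO library (0.0643 to 0.14). Col4a2 was at 11846 ± 1009 in WT and 11776 ± 709.6 in Pbrm1 cKO (mean ± SD of 3 libraries; -0.01, SE 0.10, adjusted p = 0.963).

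The X-linked pair Col4a5 and Col4a6, whose chains join in a network found under some epithelia and around smooth muscle, fell together. Col4a5 (chrX:141475385-141689234, plus strand) had 402, 475 and 442 normalized counts in WT, against 213, 225 and 209 in Pbrm1 cKO (log2 fold change -1.02, SE 0.14, adjusted p = 5.9e-12, DESeq2). Col4a6 had 53.4, 79.9 and 77.8 in WT and 33.5, 27.2 and 26.3 in Pbrm1 cKO (-1.28, SE 0.32, adjusted p = 0.000393). Neither gene overlapped between the groups, and their starts lie 1.31 kb apart on chromosome X. The remaining back-to-back pair, Col4a3 (274 ± 40.4 and 221 ± 13.4) and Col4a4 (61.1 ± 11.9 and 64.4 ± 10.1), was not called (adjusted p = 0.155 and 0.893), although Col4a3 passed without WT replicate 3 (0.0335). The smooth muscle marker Acta2 marks cells known for type IV collagen. It was at 2958 ± 302 in WT and 1507 ± 36.7 in Pbrm1 cKO. Of 12 smooth muscle and pericyte markers, 4 were lower and 1 higher (41.7% called, beside 31.1% of all genes tested). Their summed level was 23525 to 24141 normalized counts per kb in WT, against 22869 to 24060.4 in Pbrm1 cKO, which overlap. On TPM it was 4430 to 4550 in WT and 4910 to 5240 in Pbrm1 cKO, without overlap, so the reading depends on the scaling. The part of such cells in the differences of these collagen genes was not tested.

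Of the type VI collagen genes, the large-chain genes Col6a3 and Col6a4 rose. Col6a3 (chr1:90765923-90843971, minus strand) encodes the long chain that joins the Col6a1 and Col6a2 chains and carries the endotrophin fragment at its end. It had 44844, 48112 and 54869 normalized counts in WT, against 74365, 73154 and 69048 in Pbrm1 cKO, all above the WT libraries (log2 fold change 0.55, SE 0.10, adjusted p = 4.57e-07, DESeq2). By rank of transcript level among all genes (TPM, counts scaled by exon length and library), Col6a3 moved from 117 in WT to 56 in Pbrm1 cKO. Col6a1 averaged 15259 ± 762 and 13423 ± 959 normalized counts (WT and Pbrm1 cKO, SD, n = 3; -0.18, SE 0.09, adjusted p = 0.114), and Col6a2 averaged 10504 ± 995 and 12027 ± 1135 (0.20, SE 0.11, adjusted p = 0.183). Neither was called, although the Col6a1 groups did not overlap (Pbrm1 cKO lower) and Col6a2 passed without WT replicate 3 (adjusted p = 0.0403).

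Col6a4, Col6a5 and Col6a6 lie side by side on chromosome 9 in the same direction, with gaps of 27.9 and 28.8 kb, and encode chains that can take the place of Col6a3. Col6a4 had 2169, 3737 and 4461 normalized counts in WT, against 5422, 5156 and 4775 in Pbrm1 cKO (log2 fold change 0.57, SE 0.20, adjusted p = 0.0211, DESeq2). WT replicate 1 lay far below the other WT libraries, and without it the log2 fold change was 0.32 (adjusted p = 0.00682). The call was lost in edgeR (adjusted p = 0.0578), without WT replicate 2 (0.229) and without any Pbrm1 cKO library (0.0505 to 0.113). Col6a6 (47.3 ± 24.5 and 75.1 ± 4.85) and Col6a5 (8.73 ± 3.86 and 13.3 ± 4.8) were not called.

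Col17a1 and Col7a1 belong to the anchoring complex that ties epithelium to its basement membrane: Col17a1 is a transmembrane collagen of hemidesmosomes, and Col7a1 forms the anchoring fibrils. Col7a1 (chr9:108953586-108984875, plus strand) rose from 523, 637 and 697 normalized counts in WT to 1577, 1628 and 1757 in Pbrm1 cKO (log2 fold change 1.42, SE 0.13, adjusted p = 1.53e-26, DESeq2). Col17a1 (chr19:47646344-47692094, minus strand) had raw counts of 1, 4 and 3 (WT) against 77, 107 and 76 (Pbrm1 cKO), which is 26.9 times as much after scaling to library size (95% counting interval 13.5 to 63.1, adjusted p = 3.63e-14, DESeq2). Both were higher in 3 of 3 Pbrm1 cKO libraries, without overlap. Of 15 epithelial markers tested, 6 were higher in Pbrm1 cKO (beside 15.9% of all genes tested) and none was lower. Among those higher were Ltf (log2 fold change 2.84), Wnt7a (2.56), Krt19 (1.38), Cdh1 (1.14) and Krt8 (0.52), all but Krt8 named after their values were seen. The epithelial list summed to 1111 to 1824 normalized counts per kb in WT, against 1832 to 1964 in Pbrm1 cKO, which lie next to each other. On TPM the sum was 215 to 334 in WT and 407 to 420 in Pbrm1 cKO, farther apart. The size of the gap thus depended on the scaling. Epcam overlapped between the groups, and the part of epithelial cells in the rise of Col7a1 and Col17a1 was not tested. The other transmembrane genes tested, Col13a1 (11.7 ± 10.6 and 4.31 ± 4.03) and Col23a1 (26.9 ± 8.87 and 18.8 ± 2.49), were not called.

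The multiplexins Col15a1 and Col18a1 lie in basement membranes, and the C-terminal fragment of Col18a1 is endostatin. Col18a1 (chr10:77052178-77166548, minus strand) had 2745, 4728 and 4494 normalized counts in WT, against 2414, 2459 and 2065 in Pbrm1 cKO (log2 fold change -0.79, SE 0.18, adjusted p = 0.000121, DESeq2). Col15a1 had 319, 597 and 788 in WT and 707, 687 and 676 in Pbrm1 cKO (0.28, SE 0.25, adjusted p = 0.437). In both genes WT replicate 1 was lowest of the WT libraries, as were the summed endothelial markers (373 per kb against 995 and 881), whose part was not tested. The endothelial cadherin gene Cdh5 was at 774, 713 and 677 in WT and 190.4, 192 and 200.8 in Pbrm1 cKO (-1.89, adjusted p = 2.4e-46), and of 12 endothelial markers 3 were lower and 1 higher (33.3% called, beside 31.1% of all genes). Without WT replicate 3 the Col18a1 call was lost (adjusted p = 0.0594) and Col15a1 was called higher (0.0245). Col26a1, a small secreted collagen, had raw counts of 12, 23 and 17 (WT) against 0, 0 and 3 (Pbrm1 cKO), a ratio of 0.0478 after scaling (95% counting interval 0.00955 to 0.148, adjusted p = 0.000259, DESeq2). The sheet-forming Col8a1 (307 ± 77.5 and 332 ± 22.7) and Col8a2 (34.3 ± 8.35 and 19.7 ± 2.68) were not called, although Col8a2 passed in edgeR (adjusted p = 0.0345).

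FACIT collagens decorate fibrils and moved in both directions. Col12a1 (chr9:79598991-79718831, minus strand), which binds type I fibrils, had 5831, 6388 and 6186 normalized counts in WT, against 4826, 4693 and 4581 in Pbrm1 cKO (log2 fold change -0.38, SE 0.08, adjusted p = 2.25e-05, DESeq2). Col16a1 (chr4:130047840-130099283, plus strand) had 1081, 896 and 837 in WT and 1285, 1306 and 1299.5 in Pbrm1 cKO (0.47, SE 0.12, adjusted p = 0.000647). In both the groups were clearly apart. The calls of Col20a1 (48.7 ± 13.1 and 85 ± 17.6, adjusted p = 0.026, higher) and Col22a1 (32.4 ± 15.3 and 14.2 ± 3.16, adjusted p = 0.0476, lower) rested on few counts. Col20a1 lost its call without WT replicate 1 or 3 (0.0641 and 0.124) or Pbrm1 cKO replicate 2 or 3 (0.119 and 0.177). Col22a1 lost it without WT replicate 2 (log2 fold change -0.74, adjusted p = 0.361), WT replicate 3 (0.0612) or any Pbrm1 cKO library (0.0666 to 0.193). With the trend of fold change with gene length removed, an alternative chosen after seeing the data, Col12a1 was at -0.587. The same alternative lost the calls of Col6a4 and Col11a2 and called Col4a3 lower. Col14a1 (117 ± 29.3 and 112 ± 17.7), Col9a3 and Col19a1 were not called (adjusted p = 0.887, 0.641 and 0.795).

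Ratios between collagen genes were compared per length of transcript (ratio of TPM, which does not depend on library size) in 10 pairs, of which 7 are chains of 1 collagen type and 3 set Col3a1, Col5a1 or Col4a1 against Col1a1. With 3 libraries against 3, the smallest two-sided exact permutation p is 0.1, so no pair could pass 0.05. In 5 pairs the groups did not overlap, each with an exact p of 0.1 and 0.2 after Benjamini-Hochberg adjustment over the 10 pairs. Col5a1 to Col5a2 was 0.73, 0.72 and 0.763 in WT and 1.37, 1.35 and 1.35 in Pbrm1 cKO. The spread within either group was small against that gap. With the longest coding transcript as length, the same ratio was 0.515 in WT and 0.946 in Pbrm1 cKO, so which chain is the higher one in Pbrm1 cKO depends on the length used. Col3a1 to Col1a1 was 0.319, 0.56 and 0.351 in WT and 0.14, 0.14 and 0.145 in Pbrm1 cKO, so type III transcripts were lower relative to type I in every Pbrm1 cKO library. Col6a3 to Col6a1 was 1.1, 1.09 and 1.37 in WT and 1.89, 2.0 and 2.03 in Pbrm1 cKO.

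The other pairs without overlap were Col6a1 to Col6a2, at 2.78 ± 0.294 in WT and 2.12 ± 0.0491 in Pbrm1 cKO, and Col5a1 to Col1a1, at 0.366 ± 0.0714 and 0.562 ± 0.00712 (SD, n = 3). Col1a1 to Col1a2 overlapped between the groups (5.93 ± 1.05 in WT and 6.89 ± 0.121 in Pbrm1 cKO, exact p = 0.4), as did Col4a1 to Col4a2 (2.83 ± 0.396 and 2.37 ± 0.0474, exact p = 0.2). Col4a5 to Col4a6, the pair that fell together, was 7.57 ± 1.18 and 8.95 ± 1.23 (exact p = 0.2). The level of a ratio depends on the transcript length used: with the longest coding transcript in place of all exons, Col1a1 to Col1a2 was 2.83 in WT. The log2 difference between the groups does not.

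**Figure D3:**
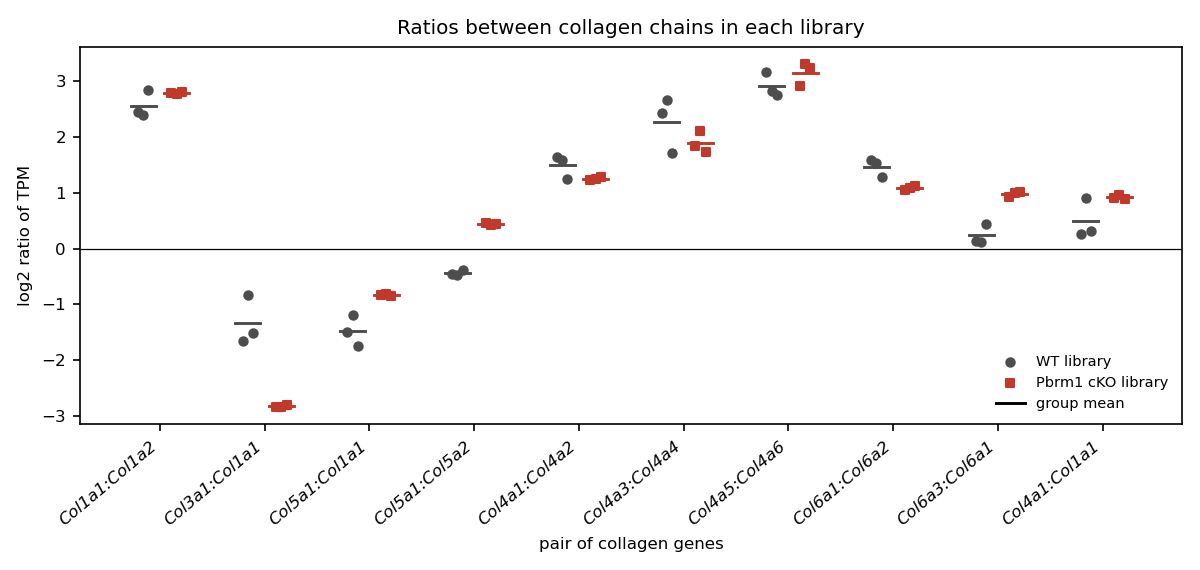
Log2 ratio of TPM between pairs of collagen genes in each library (WT, gray circles; Pbrm1 cKO, red squares), with the group mean as a line. Col5a1 to Col5a2 lies below 0 in the WT libraries (mean -0.44) and above 0 in the Pbrm1 cKO libraries (mean 0.44) with all exons as length (with the longest coding transcript the mean ratio is below 1 in both groups), and Col3a1 to Col1a1 drops from a mean of -1.33 to -2.82.

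The collagen genes were then summed over all 44. Collagen genes took 1.5% of all counts in WT and 1.42% in Pbrm1 cKO (exact permutation p = 0.1). Their summed level was 5084 ± 140.0 TPM in WT and 5313 ± 399 TPM in Pbrm1 cKO (mean ± SD of 3 libraries; exact permutation p = 0.5). The TPM scale itself shifted between the groups: the median log2 TPM ratio of 10985 tested genes was 0.21, and the small nuclear RNA gene Rn7sk alone took 12.1% of TPM in WT and 3.96% in Pbrm1 cKO. On DESeq2 normalized counts per kb, the sum was 26978 ± 108 in WT and 24509.6 ± 1118 in Pbrm1 cKO, a log2 ratio of -0.14 in place of 0.06, with every Pbrm1 cKO library below every WT library (exact permutation p = 0.1, the smallest possible). The direction of the sum therefore depended on the scaling.

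The shares of the classes do not depend on that scaling. Fibrillar transcripts made up 39.1%, 32.7% and 33.1% of the summed collagen TPM in WT and 24.8%, 24.4% and 25.4% in Pbrm1 cKO. Beaded-filament transcripts made up 31.6%, 34.9% and 36.7% in WT and 45.8%, 45.7% and 44.9% in Pbrm1 cKO. Both shares were apart in every library (exact permutation p = 0.1, the smallest possible). The size of a share depends on the exon length used, and no order of the classes is read from it. The basement membrane share was 25.7% ± 1.12 and 24.7% ± 0.206 (exact p = 0.2). On normalized counts per kb, the fibrillar sum was 0.646 times and the beaded-filament sum 1.2 times its WT level. Within the beaded-filament class, Col6a3 averaged 776 TPM in WT and 1308 in Pbrm1 cKO, beside 1747 and 2418 for the class. Col6a1 averaged 656 and 665 TPM, Col6a2 238 and 313, and Col6a4 76.1 and 130. The rise of that class therefore rested largely on Col6a3.

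**Figure D4:**
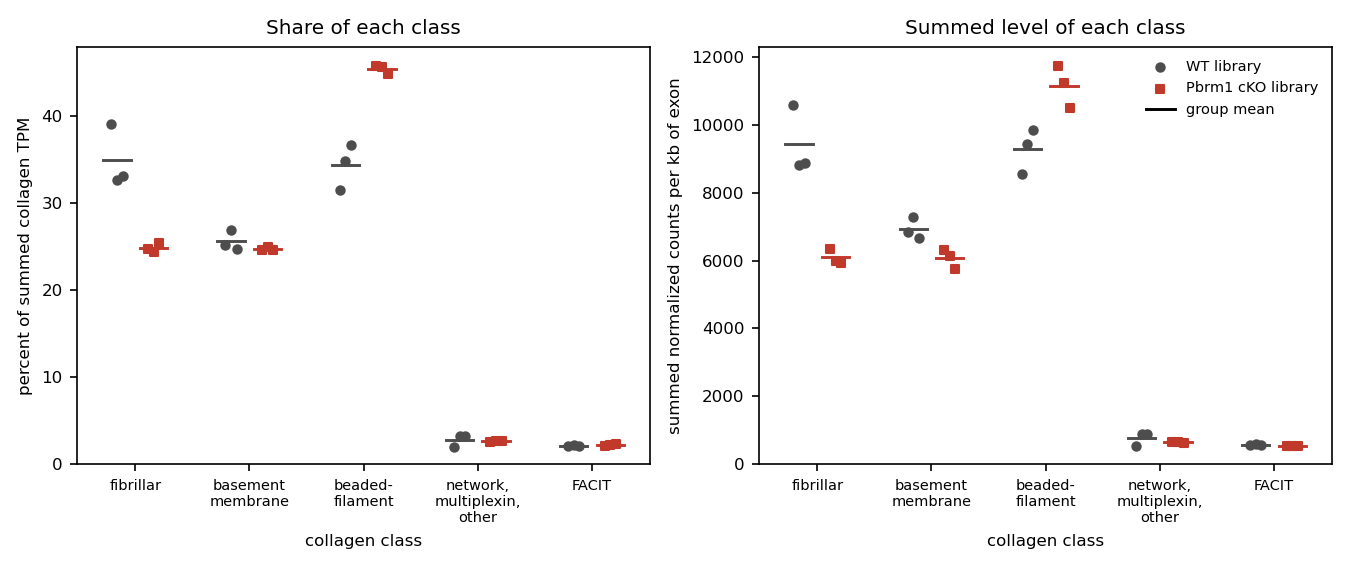
Left, the share of each collagen class in the summed collagen TPM of each library. Right, the summed DESeq2 normalized counts per kb of exon. Gray circles are WT libraries, red squares are Pbrm1 cKO libraries and lines are group means. Fibrillar genes hold 34.9% in WT and 24.9% in Pbrm1 cKO on average and beaded-filament genes 34.4% and 45.5%, and the transmembrane class, under 0.1%, is left out.

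The WT libraries varied more than the Pbrm1 cKO libraries. Over the 22 collagen genes with a mean of at least 100 normalized counts, the median coefficient of variation was 14.5% in WT and 4.19% in Pbrm1 cKO. WT replicate 1 was the lowest WT library in 12 of the 22 and the highest in 6. In the type I genes and Col5a2 it was highest, and in Col5a3, Col6a3, Col6a4, Col15a1 and Col18a1 it was lowest.

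Genes that make, process, bind or degrade collagen were examined in 6 lists. The lists were drawn up from general knowledge, with earlier results of these data known. Of 70 genes tested, 20 rose and 18 fell (15.9% and 15.2% of all genes did). The lists for hydroxylation, export and processing each held more genes lower than higher. Those for receptors, degrading enzymes and fibril partners each held more higher than lower. Procollagen chains are first hydroxylated and glycosylated in the endoplasmic reticulum, and of 15 such genes 6 fell and 1 rose (median log2 fold change -0.28). P4hb, the shared subunit of prolyl 4-hydroxylase, had 32769, 36488 and 38746 normalized counts in WT, against 24789, 25047 and 24785 in Pbrm1 cKO (-0.53, SE 0.09, adjusted p = 4.84e-08, DESeq2). P3h3, a prolyl 3-hydroxylase family member, was at 625 ± 9.74 and 383 ± 18.5 (-0.70, adjusted p = 1.35e-08). P4ha1, the catalytic partner of P4hb, was at 8668 ± 933 and 6962 ± 178 (-0.32, adjusted p = 0.00897), a call lost without WT replicate 2 or any Pbrm1 cKO library (adjusted p = 0.0508 to 0.077). Crtap, part of the prolyl 3-hydroxylation complex, was at 643 ± 45.7 and 508 ± 29 (-0.34, adjusted p = 0.0168). That call was lost without WT replicate 2 or Pbrm1 cKO replicate 2 or 3 (0.0807 to 0.112). It was also lost with the trend with gene length removed (-0.25, adjusted p = 0.114, DESeq2). Colgalt1, which adds galactose to hydroxylysine, rose from 2397 ± 272 to 3196 ± 125 (0.42, adjusted p = 0.000825), and the lysyl hydroxylase Plod2 was not called (4504 ± 331 and 5013 ± 169.6, adjusted p = 0.207).

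Folded procollagen needs chaperones and large transport carriers to leave the endoplasmic reticulum. The list of 11 genes tested also holds the extracellular Sparc and the transcription factor Creb3l1. In it 5 fell and 1, Creb3l1 (log2 fold change 0.49), rose (median -0.14). Serpinh1, the collagen chaperone HSP47, had 61012, 63113 and 57679.5 normalized counts in WT, against 41186, 40824 and 39904 in Pbrm1 cKO (-0.58, SE 0.08, adjusted p = 1.14e-12, DESeq2). The groups were far apart. Sparc, an extracellular collagen-binding protein, was at 67.3% of its WT level (-0.57, adjusted p = 2.37e-09), the COPII coat subunit Sec23a at 68% (-0.56, adjusted p = 2.51e-06) and the prolyl isomerase Fkbp14 at 63.3% (-0.66, adjusted p = 2.63e-08).

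Outside the cell, propeptides are removed and chains are cross-linked. In this list 3 of 13 genes fell and 2 rose (median log2 fold change 0.05). Pcolce, the enhancer of C-propeptide removal, had 353, 405 and 428 normalized counts in WT, against 85.8, 104 and 98.5 in Pbrm1 cKO (-2.04, SE 0.17, adjusted p = 3.25e-31, DESeq2). Its relative Pcolce2 went the other way, from 308 ± 28.9 to 460.4 ± 14.9 (0.58, adjusted p = 9.24e-05). Lox, the main cross-linking enzyme, was at 9032 ± 519 and 10140.5 ± 543 (0.17, adjusted p = 0.148), although it passed without WT replicate 3 (0.0406), and Loxl4 fell from 246 ± 60.0 to 143 ± 8.54 (-0.79, adjusted p = 0.000963). Loxl3 was at 149 ± 6.86 and 106 ± 4.58 (-0.49, adjusted p = 0.0321), a call lost without WT replicate 1 or 2 or any Pbrm1 cKO library (0.0747 to 0.149).

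Receptors and degrading enzymes moved up more often than down. Of 11 genes in the list of receptors and uptake, 7 rose and 1 fell (median log2 fold change 0.44). The 7 include Pdpn (0.99), which is not itself a collagen receptor. Of 7 genes for degrading enzymes, 4 rose and 1 fell (median 0.71). Itga2, the collagen-binding integrin chain, had 796, 1006 and 1019 normalized counts in WT, against 1973, 1823 and 1799 in Pbrm1 cKO (0.99, SE 0.12, adjusted p = 2.25e-14, DESeq2). Itga1, another such chain, fell from 261 ± 88.2 to 117 ± 14 (-1.15, adjusted p = 7.18e-05). Mmp8, the neutrophil collagenase, rose from 79.8 ± 14 to 442 ± 6.03 (2.47, adjusted p = 9.78e-44), and Mmp13, another collagenase, from 40.2 ± 36.7 to 253 ± 14 (2.65, adjusted p = 0.00119). WT replicate 3 had the most Mmp13 of the WT libraries (82.2 against 13.9 and 24.4), and without it the log2 fold change was 3.72.

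Several of these genes are known from leukocytes. Lair1, an inhibitory collagen receptor of immune cells, rose from 12.7 ± 8.15 normalized counts to 104 ± 3.02 (log2 fold change 3.03, adjusted p = 1.65e-13, DESeq2), the macrophage receptor Mrc1 from 74.3 ± 22.6 to 182 ± 16.6 (1.29, adjusted p = 1.48e-06) and the gelatinase Mmp9 from 24.9 ± 6.23 to 94.9 ± 15 (1.93, adjusted p = 1.52e-08). The leukocyte marker Cd74 moved with them (681, 1007 and 851 in WT and 7426, 7067 and 6537 in Pbrm1 cKO), and the part of leukocytes in these differences was not tested. Ctsk, a collagen-cleaving cathepsin, fell from 880.0 ± 63.9 to 592 ± 18.3 (-0.57, adjusted p = 2.6e-06).

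**Figure D5:**
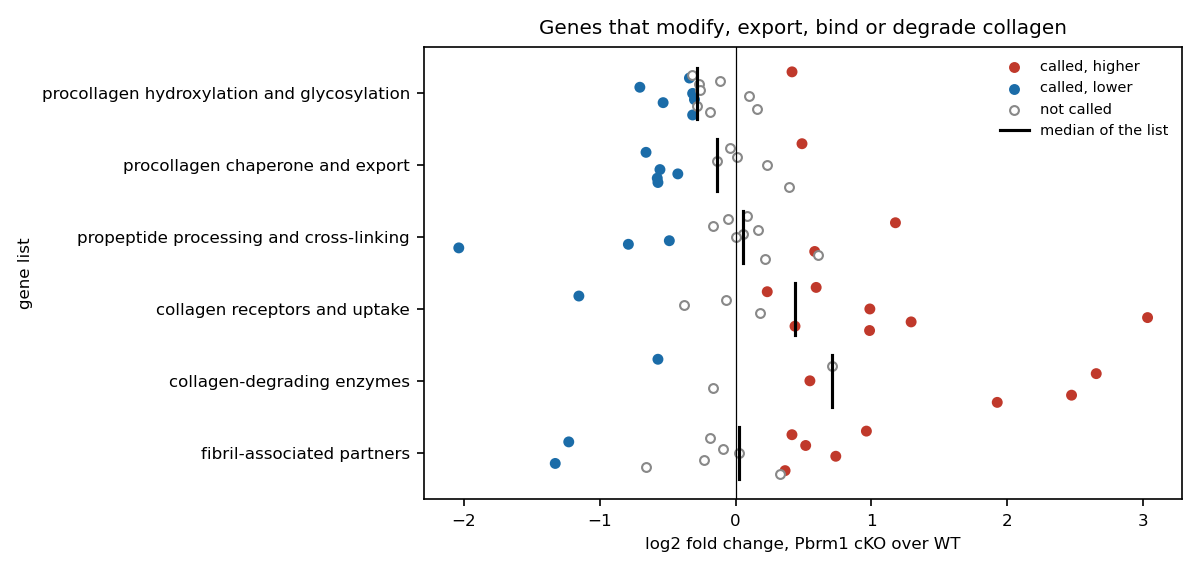
Log2 fold change (Pbrm1 cKO over WT, DESeq2) of the 70 genes tested in 6 lists of genes that act on collagen. Red points were called higher, blue points called lower, open points were not called and black bars are list medians, which run from -0.28 for hydroxylation and glycosylation to 0.71 for degrading enzymes.

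Of 13 genes for proteins that bind collagen fibrils, 5 rose and 2 fell (median log2 fold change 0.02). Ogn and Dpt, small matrix proteins that regulate fibril diameter, fell to 39.9% and 42.7% of their WT levels (-1.33 and -1.23, adjusted p = 2.44e-20 and 1.53e-32, DESeq2). Fn1, the fibronectin scaffold on which collagen fibrils are laid down, rose from 9271, 10544 and 11854 normalized counts in WT to 17575, 18379 and 16838 in Pbrm1 cKO (0.74, SE 0.11, adjusted p = 2.71e-10). Neither Ogn, Dpt nor Fn1 overlapped between the groups. Aspn was at 34.8 ± 13.3 and 67.7 ± 9.72 (0.96, adjusted p = 0.0202), a call lost without WT replicate 1 or 2 or any Pbrm1 cKO library (0.0533 to 0.164).

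Among neighbouring collagen genes, Col3a1 and Col5a2 lie tail to tail on chromosome 1 with 24.6 kb between them, and both fell. Col4a5 and Col4a6 also both fell, and Col6a1 and Col6a2 (chromosome 10, 85.2 kb apart) were both not called. Neither Col4a3 and Col4a4 nor Col6a5 and Col6a6 were called. Other neighbours differed in their calls: Col4a1 fell slightly beside Col4a2, which was not called, and Col6a4 rose beside Col6a5, which was not called. Whether neighbours differ from each other in their response was not tested beyond the chain ratios.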

How the data were processed

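RNA-seq libraries of mUSCs (3 WT, 3 Pbrm1 cKO) were analyzed from the count table that the authors deposited. It holds whole-number counts of reads per gene and, in a column of another kind, the exon length of each gene. Per its header, the authors counted with featureCounts (1.6.4, reverse-stranded) against GENCODE mouse release 18. The processing notes name cutadapt, HISAT2 and GRCm38.p5, with no versions. The labels describe total RNA primed with random and poly(T) primers with depletion of unwanted RNA. The study's methods give mRNA purification instead, and which holds is unknown. No batch is labelled, and 0 columns of other samples were present.

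Counts of all 54232 genes were fitted with DESeq2 1.42.0 (R 4.3.3; Wald test, no covariate, unshrunken log2 fold changes, Benjamini-Hochberg adjustment over all genes tested, threshold 0.05). Levels between genes are TPM computed from counts and exon lengths. Marker lists were summed as normalized counts per kb, a scale chosen after seeing the data. The stromal, smooth muscle and epithelial sums are also given on TPM. Sums and ratios were compared by two-sided exact permutation tests (scipy 1.17.1). Gene symbols came from GENCODE release 21 (54079 genes named) and promoter windows from RefSeq. Total counts were 13253575 to 18338667 per library. With 3 libraries per group, precision is set by the spread between libraries for all but the lowest genes, and the floor is 3 counts. Scripts were tested on simulated data. Alternatives were edgeR 4.0.16 (quasi-likelihood), TMM scaling, other filters, a test against a log2 fold change of 0.58, a replicate block, and leaving out each library.

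The collagen genes, gene lists and pairs were chosen with earlier results of these data known. Values per library are given for called collagen genes with a mean of at least 100 and for the most abundant gene of each class. Those of Col4a6, Col5a1, Col15a1, Col17a1 and Col26a1 were added after their values were seen. From each pathway list, up to 4 called genes with the largest change and a mean of at least 50 are named, along with Serpinh1, Lox, P4ha1 and Plod2. Pdpn and Creb3l1 are named only to state what their lists hold. Promoters are those of up to 4 called fibrillar genes with the highest means.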

Additional observations from a re-analysis of the deposited data

How the results depend on the processing

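The counts of collagen genes called were 8 higher and 12 lower with DESeq2, 7 and 13 with edgeR, and 6 and 13 with the trend of fold change with gene length removed (an alternative chosen after seeing the data). With the replicate block, 5 collagen genes were higher and 11 lower. Same-numbered libraries of the groups had correlations of 0.11, -0.05 and 0.00 in their deviations from the group means, so the numbers were not taken as pairs. Leaving out each library in turn gave 5 to 8 higher and 10 to 12 lower, the lowest number higher (5) without Pbrm1 cKO replicate 2 or 3. Tested against a log2 fold change of 0.58 (adjusted p threshold 0.1), the fit called 2 collagen genes higher (Col7a1, Col17a1) and 4 lower (Col3a1, Col4a5, Col11a1, Col26a1), the genes called under every alternative run. The same test called 699 higher and 563 lower of all genes, and 6 higher and 3 lower of the pathway genes. The log2 ratio of the summed collagen level, 0.06 on TPM, was -0.138 on DESeq2 normalized counts per kb (chosen after seeing the data), -0.0858 on CPM by TMM and -0.00228 with the longest coding transcript as length, and 0.0114 to 0.119 with each library left out. The fitted log2 fold change of Col26a1 was -6.85 without Pbrm1 cKO replicate 3, the one library of that group with counts. The cause of these shifts was not tested. Genes under about 100 normalized counts, and pairs tested over 3 libraries per group, are limited by depth or by number.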
